A study of Solanum tuberosum with 12 samples.

Results

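The miR482 and miR2118 superfamily was represented in these potato tuber libraries by 14 mature miRNAs. They were the entries whose names contain miR482, miR472 or miR2118, taken as 1 entry per distinct sequence with the 5p and 3p arms apart, out of 7827 entries and 5730 distinct sequences in the deposited miRNA table. Of the 14, 9 carried potato names (prefix stu-) and 5 carried names borrowed from other species, in which the endings x and y are used in place of an arm. The study compared tubers of Solanum tuberosum from 4 cultivars, which were Black kingkong, Longshu No.7, LK99 and Red beauty, each sampled at an age of 150 days from plants set together under the same conditions, with 3 small RNA libraries per cultivar. No treatment or transgene was named in the labels. Whether separate plants gave the 3 libraries of each cultivar is not stated in the labels, so every p-value measures library-to-library spread alone, some of which could be technical. In such bulk samples, fewer cells of a type and less RNA per cell cannot be told apart. A table of miRNAs holds no tuber marker genes, so the tissue label could not be checked.

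miR482 and miR2118 are related plant miRNAs that pair with the stretch of mRNA encoding the P-loop, the nucleotide-binding motif of the NLR (NB-LRR) immune receptors. Because that motif is conserved, a single miRNA can pair with many receptor mRNAs, and forms of the longer size class recruit the RNA-dependent RNA polymerase RDR6 to the cut transcript, which is turned into phased secondary siRNAs. In tomato, tobacco relatives and potato the family is known as a brake on NLR expression. miR472 is the name of the related miRNA in Arabidopsis and poplar. The strand that pairs with NLR mRNAs comes from the 3′ arm of the hairpin, and the strand from the 5′ arm is usually degraded.

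The sequences that carried the results are shown 5′ to 3′ as the deposited table gives them, with T for U and with the seed (bases 2 to 8) in capitals. The first 6 held nearly all of the family's reads, the next 2 shared most of their bases with one of these, and the last 3 were the most abundant strands of the 5p type.
stu-miR482c: tTTCCTATtccacccatgccaa
stu-miR482d-3p: tCTTGCCTacaccgcccatgcc
stu-miR482b-3p: tTACCGATtccccccattccaa
stu-miR482a-3p: tTTCCAATtccacccattccta
stu-miR482e-3p: tCTTGCCAataccgcccattcc
miR482-y: tCTTTCCTactcctcccatacc
miR2118-y: tTTCCTATtccacccattt
miR472-y: tTTTTCCTactcctcccatacc
stu-miR482a-5p: gGAATTGGtggattggaaagc
stu-miR482e-5p: aGTGGGTGgtgtggtaagatt
miR482-x: tGTGGGTGgggtggaaagatt

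Of the 14 sequences, 9 held the letters CCCAT on the strand shown and were treated as the 3p type, and the other 5 were of the 5p type. By these letters miR2118-x was put in the 3p type, although miR482-x, with the same ending, was of the 5p type. The arms of the entries with borrowed names could not be checked. All 9 of the 3p type began with T, compared with 43.9% of all distinct sequences in the table. Of these 9, 8 were 22 nt long, the length of 27.1% of all distinct sequences, and miR2118-y had 19 nt. All 5 of the 5p type were 21 nt long. CCCAT was found in 46 of the 5730 distinct sequences (0.803%), 37 of them under names outside the family. The 14 members had 12 distinct seeds. The seed TTCCTAT was shared by stu-miR482c and miR2118-y, and GTGGGTG by stu-miR482e-5p and miR482-x.

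Several members were near copies of one another. Counting positions from 1 at the 5′ end of the sequence named first, miR482-y and miR472-y differed by C2T alone, inside the seed. stu-miR482c and miR2118-y differed by G18T and C19T over their shared length. stu-miR482c and stu-miR482a-3p differed by T6A, G18T and A21T, so that their seeds were 1 base apart. stu-miR482d-3p and stu-miR482e-3p differed by T8A, C10T and G20T, and stu-miR482e-5p and miR482-x by A1T, T10G and T15A. How reads that match more than 1 of these were assigned is not given in the sources used here, so the split between such pairs is uncertain.

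The libraries held 5605168 to 7354483 counts. The family took 0.415% to 1.37% of them, while 1 entry of the table took 86.1% to 92.0% of every library. Levels are given as counts per 1000000 counts of the library (CPM) after scaling by the trimmed mean of M values (TMM), which reduces the pull of such an entry. The TMM factors were 1.18 to 1.38 in LK99 and 0.785 to 1.12 in the other 9 libraries. Summed over the 14 members, the level was 8434, 8602 and 7852 CPM in Black kingkong, 4948, 4680 and 5296 CPM in Red beauty, 6207, 5871 and 5992 CPM in Longshu No.7, and 10006, 5782 and 8221 CPM in LK99. The Black kingkong libraries all lay above those of Red beauty and Longshu No.7, and the Longshu No.7 libraries lay above those of Red beauty. The LK99 libraries were spread over a wide range (8003 ± 2121 CPM, SD, n = 3), with replicate 2 below every Longshu No.7 library. LK99 replicate 2 was also the lowest of its cultivar for 5 of the 6 abundant members described next.

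Most of the family's reads came from 6 strands of the 3p type, stu-miR482c, stu-miR482d-3p, stu-miR482b-3p, stu-miR482a-3p, stu-miR482e-3p and miR482-y. Each had over 10000 counts in all, and together they held 98.0% to 99.6% of the family's counts in every library. The other 8 members had 2 to 3412 counts each over the 12 libraries. Among the 6, all but stu-miR482b-3p had their lowest cultivar mean in Red beauty or Longshu No.7 and their highest in Black kingkong or LK99.

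stu-miR482c, the most abundant member, had 2617, 3126 and 2455 CPM in Black kingkong, 1389, 1487 and 1279.7 CPM in Red beauty, 1749, 1763 and 1624 CPM in Longshu No.7 and 3158, 1496 and 1956 CPM in LK99. All Black kingkong libraries were above all Red beauty and Longshu No.7 libraries, while the LK99 libraries spanned nearly the whole range. Its mean was 2733 ± 349.9 CPM in Black kingkong against 1385 ± 104 CPM in Red beauty (SD, n = 3 each), and the difference passed the test (log2 fold change 0.98, SE 0.25, adjusted p = 0.00627). Against Longshu No.7 (1712 ± 76.6 CPM) the adjusted p was 0.0499, and this call was lost in 11 of 20 other settings. Red beauty and LK99 (2204 ± 858 CPM) did not pass (adjusted p = 0.0525), but did in 8 of 20 other settings.

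stu-miR482d-3p had 1584, 1533 and 1546 CPM in Black kingkong, 690.5, 651 and 976 CPM in Red beauty, 1182, 1123 and 1088 CPM in Longshu No.7 and 1798, 1051 and 1546 CPM in LK99. Every Red beauty library was below every library of the other 3 cultivars. Its level was higher in Black kingkong than in Red beauty (log2 fold change 1.01, SE 0.23, adjusted p = 0.00358) and lower in Red beauty than in LK99 (log2 fold change -0.92, SE 0.23, adjusted p = 0.00752). Both calls stayed in every setting tried.

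stu-miR482a-3p had 1006, 913 and 864 CPM in Black kingkong, 743, 613 and 525 CPM in Red beauty, 456, 425 and 595 CPM in Longshu No.7 and 1588, 689 and 1261 CPM in LK99. The Longshu No.7 libraries were all below those of Black kingkong and LK99, and Red beauty overlapped with LK99 because of LK99 replicate 2. The level was higher in Black kingkong than in Longshu No.7 (log2 fold change 0.92, SE 0.28, adjusted p = 0.024) and lower in Longshu No.7 than in LK99 (log2 fold change -1.26, SE 0.29, adjusted p = 0.00668). Red beauty was also lower than LK99 (adjusted p = 0.0237), a call lost without LK99 replicate 1 (0.151) and without Red beauty replicate 2 (0.0662) or 3 (0.0888). The call between Longshu No.7 and LK99 was lost with only these cultivars fitted (0.0634), and that between Black kingkong and Longshu No.7 without Black kingkong replicate 1 or 2 and without Longshu No.7 replicate 1 or 2.

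miR482-y, a strand with no potato name in the table, reached 1276 ± 46.3 CPM in Black kingkong, 819 ± 60.8 CPM in Red beauty, 1025 ± 121 CPM in Longshu No.7 and 1322 ± 371 CPM in LK99 (SD, n = 3 each). The Red beauty libraries (759 to 881 CPM) were all below the others, the nearest being a Longshu No.7 library at 886 CPM. It passed the test between Black kingkong and Red beauty (adjusted p = 0.0366) and between Red beauty and LK99 (adjusted p = 0.0312), but not in the test of any difference among the 4 cultivars (adjusted p = 0.0574). The call between Red beauty and LK99 was lost in 5 of 20 other settings, without LK99 replicate 1 (0.147) or 3 (0.0604) and without Red beauty replicate 1 (0.0851), 2 (0.0946) or 3 (0.0531). stu-miR482e-3p had 618 ± 42.2, 412 ± 37.6, 414 ± 17.0 and 649 ± 201 CPM in the same order of cultivars. It was lower in Red beauty than in LK99 (adjusted p = 0.0469), a call that 10 of 20 other settings lost. Between Black kingkong and Red beauty it did not pass (adjusted p = 0.0615), but did in 8 of 20 other settings.

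stu-miR482b-3p was the abundant member that passed in no comparison of the main fit (any difference, adjusted p = 0.385). With library size alone it passed between Black kingkong and Red beauty (adjusted p = 0.0466) and between Red beauty and LK99 (adjusted p = 0.00796). It had 1209.7, 1167 and 1055 CPM in Black kingkong, 817, 749 and 1139 CPM in Red beauty, 1204, 1196 and 1048 CPM in Longshu No.7 and 969, 1133 and 1167 CPM in LK99. The libraries of every pair of cultivars overlapped, and 2 of the 3 Red beauty libraries were the lowest of all. The means ran from 902 ± 209 CPM in Red beauty to 1149 ± 87.9 CPM in Longshu No.7 (SD, n = 3 each).

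**Figure D1:**
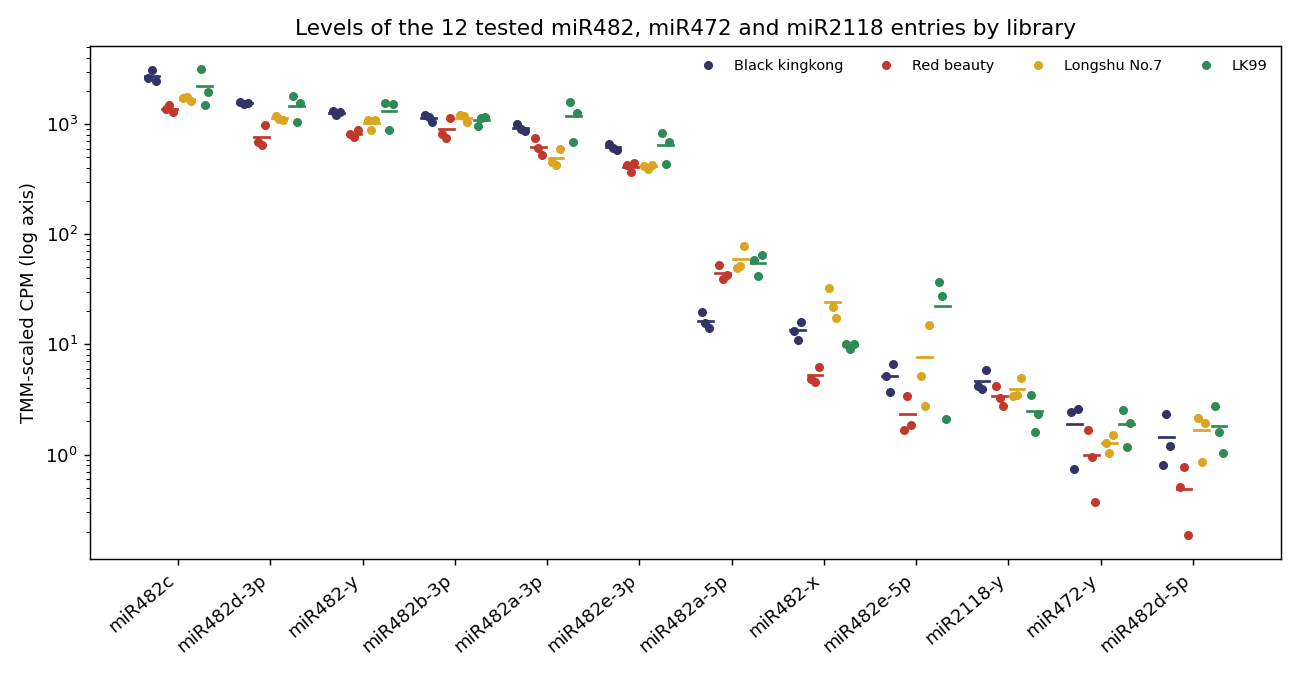
Level of the tested miR482, miR472 and miR2118 members in each of the 12 libraries (TMM-scaled CPM, log axis), with 1 point per library and a bar at the mean of each cultivar. Red beauty is low for stu-miR482c and stu-miR482d-3p, stu-miR482a-5p is low in the 3 Black kingkong libraries (14.0 to 19.7 CPM), and stu-miR482b-3p overlaps in all cultivars.

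In the test of any difference among the 4 cultivars, 7 of the 12 tested members passed, beside a background of 58.9% of the 1349 tested entries. This share is near the background and is not a result about the family. The 7 were stu-miR482c, stu-miR482d-3p, stu-miR482a-3p, stu-miR482e-3p, stu-miR482a-5p, stu-miR482e-5p and miR482-x. The 2 members not tested for low counts were stu-miR482b-5p, with 62 counts in all, and miR2118-x, with 2 counts, both in LK99 replicate 3.

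Between Black kingkong and Red beauty, 4 of 12 members were higher in Black kingkong (stu-miR482c, stu-miR482d-3p, miR482-y, miR482-x) and 1 was lower (stu-miR482a-5p), where 42.1% of all tested entries passed (20.3% higher and 21.8% lower in Black kingkong). The median log2 fold change of the members was 0.77, with 0 over all tested entries. The libraries of the 2 cultivars did not overlap for 9 of the 12 members, against 56.6% of all tested entries. The miR482-y call was lost in 8 of 20 other settings, with an adjusted p of up to 0.103, while those of stu-miR482c, stu-miR482d-3p, miR482-x and stu-miR482a-5p stayed in all of them.

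Between Red beauty and LK99, 7 of 12 members were lower in Red beauty and none was higher, where 33.5% of all tested entries passed (14.3% higher and 19.2% lower in Red beauty). The 7 were stu-miR482d-3p, stu-miR482a-3p, stu-miR482e-3p, miR482-y, miR482-x, stu-miR482e-5p and stu-miR482d-5p, and the median log2 fold change of the 12 was -0.79, with 0.00 over all tested entries. The groups did not overlap for 5 of the 12, against 48.3% of all tested entries. The count of 7 members that passed rested on single libraries. It was 2 without LK99 replicate 1 or without Red beauty replicate 3, and 3 without Red beauty replicate 1 or 2.

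Between Black kingkong and Longshu No.7, 2 members were higher in Black kingkong (stu-miR482c, stu-miR482a-3p) and 2 were lower (stu-miR482a-5p, miR482-x), with a background of 34.3% (14.7% higher and 19.6% lower in Black kingkong). The libraries did not overlap for 7 of the 12 members, against 47.4% of all tested entries. The split was 3 and 1 with DESeq2's size factors and 1 and 1 with library size alone. The number of members that passed was 1 without Black kingkong replicate 1 or 2 or Longshu No.7 replicate 1 or 2. It was 2 without any 1 of the Red beauty libraries. Between Black kingkong and LK99, only stu-miR482a-5p passed, and between Red beauty and Longshu No.7 only miR482-x, with backgrounds of 31.2% (12.5% higher and 18.8% lower in Black kingkong) and 24.0% (10.3% higher and 13.7% lower in Red beauty). Libraries did not overlap for 3 members in the first pair and 5 in the second, against 49.5% and 34.7% of all tested entries. In the first pair, 3 members passed the test without Longshu No.7 replicate 3 or LK99 replicate 1, and 2 without LK99 replicate 3. In the second pair, 2 members passed without LK99 replicate 2 and 3 without LK99 replicate 3. Between Longshu No.7 and LK99, stu-miR482a-3p was lower and miR482-x was higher in Longshu No.7, with a background of 18.3% (8.23% higher and 10.1% lower in Longshu No.7), and 3 members did not overlap, against 32.1% of all tested entries. The split was 1 higher and 2 lower with DESeq2's size factors and 0 higher and 4 lower with library size alone, and 1 member passed without Longshu No.7 replicate 1. The 6 comparisons share cultivars, so their counts are not independent of each other.

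**Figure D2:**
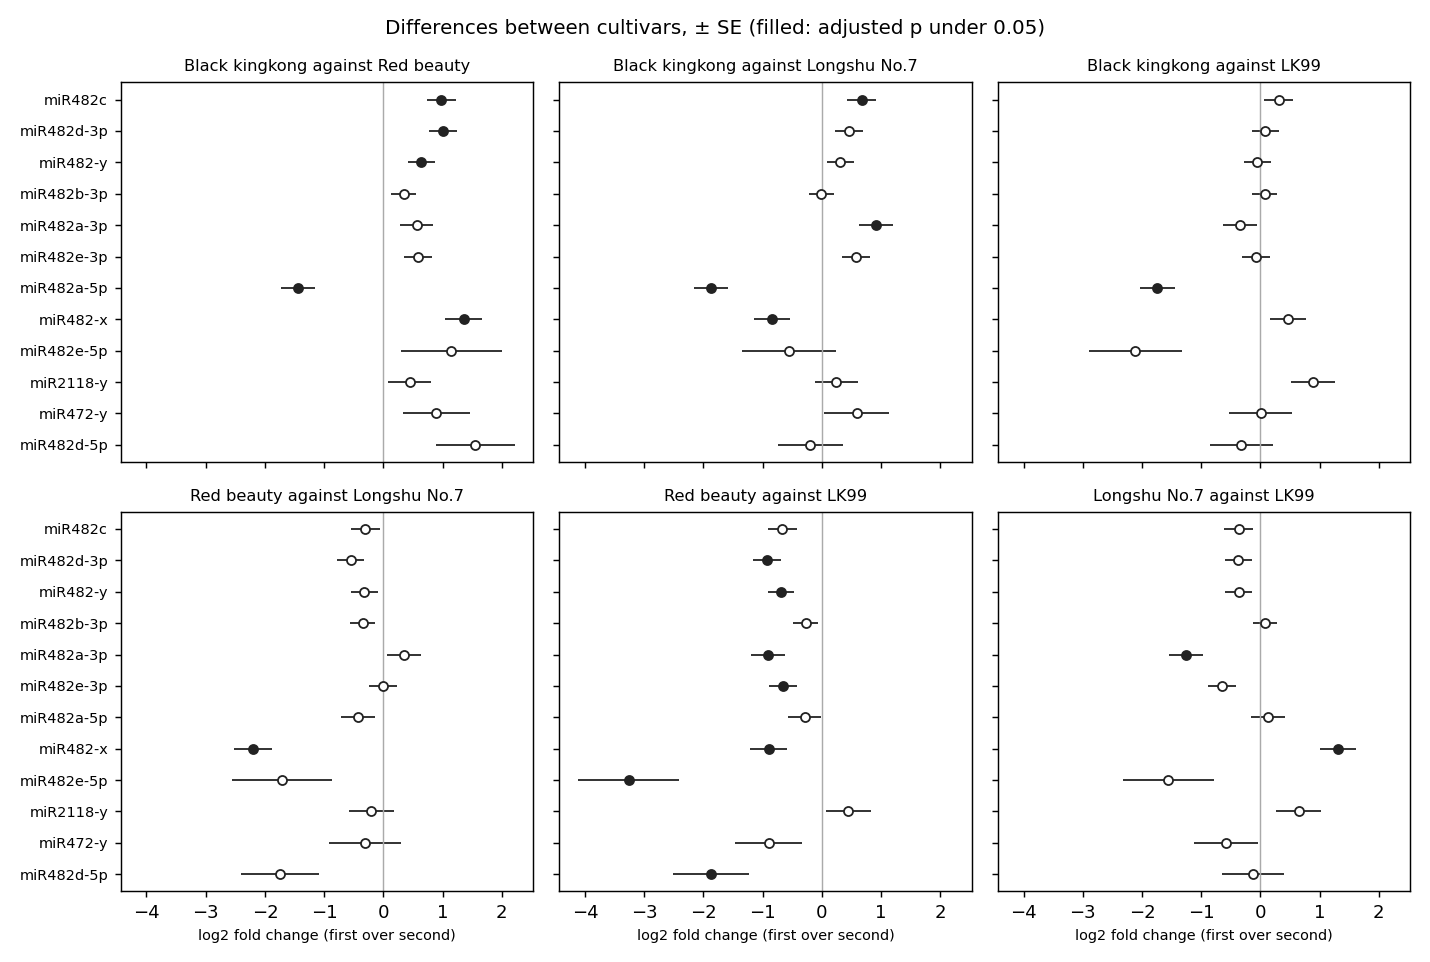
Log2 fold change of each tested member in the 6 pairs of cultivars (first cultivar over second; bars show the SE), with filled points for an adjusted p under 0.05. The points of Red beauty against LK99 and against Longshu No.7 lie mostly below 0, and those of Black kingkong against Red beauty mostly above 0. stu-miR482a-5p lies below 0 in each of the 3 pairs with Black kingkong.

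Among the strands of the 5p type, stu-miR482a-5p, the partner strand of stu-miR482a-3p by name, had 19.7, 15.6 and 14.0 CPM in Black kingkong, 52.3, 39.3 and 43.0 CPM in Red beauty, 49.7, 52.1 and 79.1 CPM in Longshu No.7 and 58.2, 42.2 and 64.5 CPM in LK99. The 3 Black kingkong libraries were below all 9 others. The strand was lower in Black kingkong than in Red beauty (log2 fold change -1.45, SE 0.29, adjusted p = 0.00149), Longshu No.7 (log2 fold change -1.87, SE 0.29, adjusted p = 0.000374) and LK99 (log2 fold change -1.74, SE 0.29, adjusted p = 0.000729). These 3 calls stayed in every setting tried, and no pair of the other 3 cultivars differed past the threshold.

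Set against its 3p partner, the 5p strand of stu-miR482a made up 1.92%, 1.68% and 1.60% of the counts of both strands in Black kingkong, 6.58%, 6.03% and 7.57% in Red beauty, 9.82%, 10.9% and 11.7% in Longshu No.7 and 3.54%, 5.77% and 4.86% in LK99. No 2 cultivars overlapped, and the order was Longshu No.7, Red beauty, LK99 and Black kingkong. This share does not depend on how libraries are scaled to each other. It is given as a description, because the arms were compared after the values were seen and a test would restate the lack of overlap.

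For stu-miR482d and stu-miR482e the 5p shares of every pair of cultivars overlapped. Those of stu-miR482b did not overlap between Longshu No.7 (0.0735% to 0.101%) and Black kingkong (0.0112% to 0.0649%) or Red beauty (0% to 0.0411%). Red beauty and LK99 (0.0446% to 0.231%) did not overlap either, while the remaining pairs did. These shares rested on 0 to 18 counts of stu-miR482b-5p per library. The 5p share of stu-miR482d was 0.0696% to 0.146% and that of stu-miR482b 0.0245% to 0.125% as means of the cultivars. stu-miR482c, with no arm in its name, could not be set against a partner.

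stu-miR482e-5p was uneven among the replicates of LK99 and among those of Longshu No.7. It had 5.13, 3.67 and 6.68 CPM in Black kingkong, 1.68, 3.43 and 1.84 CPM in Red beauty, 5.18, 2.76 and 15.2 CPM in Longshu No.7 and 37.0, 27.8 and 2.08 CPM in LK99. In LK99 these values rested on 306, 191 and 16 counts, so that replicate 3 lay among the Red beauty libraries while replicates 1 and 2 were above every other library. The test between Red beauty and LK99 passed (log2 fold change -3.26, SE 0.86, adjusted p = 0.00992), although the groups overlapped. The 5p share of the stu-miR482e hairpin was 4.26%, 6.04% and 0.304% in the LK99 libraries, whereas stu-miR482e-3p itself had 831, 433 and 684 CPM there.

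miR482-x, which shares its seed with stu-miR482e-5p, had 13.4, 11.0 and 16.1 CPM in Black kingkong, 4.86, 4.58 and 6.27 CPM in Red beauty, 32.9, 22.1 and 17.6 CPM in Longshu No.7 and 10.1, 9.18 and 10.0 CPM in LK99. The Red beauty libraries were below all others, and the Longshu No.7 libraries were above all others. It was lower in Red beauty than in Longshu No.7 (log2 fold change -2.21, SE 0.32, adjusted p = 0.00031) and higher in Black kingkong than in Red beauty (log2 fold change 1.36, SE 0.31, adjusted p = 0.00356). Longshu No.7 was also higher than LK99 (log2 fold change 1.31, SE 0.30, adjusted p = 0.00781), a call lost in 3 of 20 other settings, which were library size alone (0.0653), no filter (0.0796) and leaving out Longshu No.7 replicate 1 (0.0592). The calls between Red beauty and LK99 (adjusted p = 0.0394) and between Black kingkong and Longshu No.7 (adjusted p = 0.0425) were lost in 9 and 12 of 20 other settings.

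**Figure D3:**
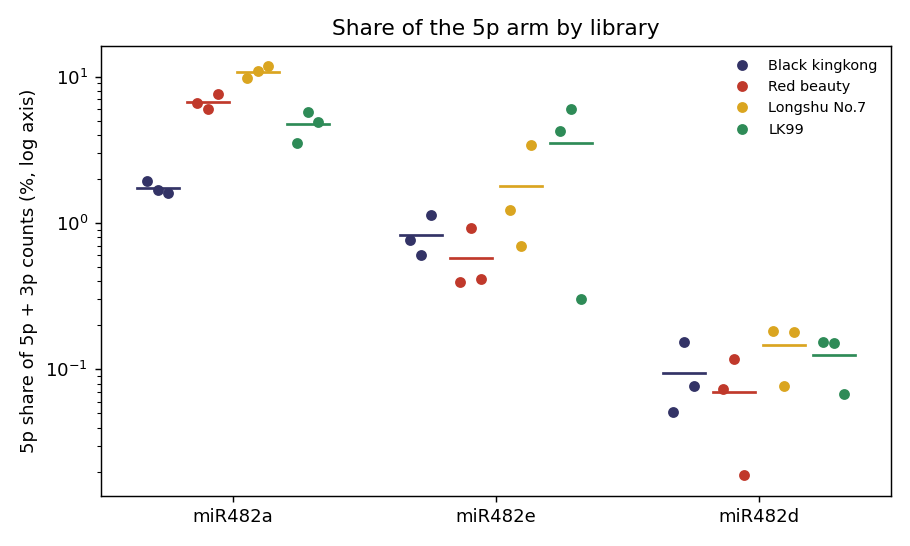
Share of the 5p strand among the counts of both strands of a hairpin, per library (percent, log axis), for the stu-miR482a, stu-miR482d and stu-miR482e hairpins; stu-miR482b, with a library at 0, is left out. For stu-miR482a the 4 cultivars do not overlap, from 1.60% in Black kingkong to 11.7% in Longshu No.7.

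The remaining tested members were scarce. miR2118-y, the sequence closest to stu-miR482c, had 4.66 ± 1.01 CPM in Black kingkong, 3.40 ± 0.726 CPM in Red beauty, 3.95 ± 0.897 CPM in Longshu No.7 and 2.48 ± 0.958 CPM in LK99 (SD, n = 3 each). miR472-y, 1 base from miR482-y, had 1.91 ± 1.02, 1.00 ± 0.656, 1.27 ± 0.241 and 1.89 ± 0.688 CPM in the same order. Neither passed in any comparison, and at 277 and 122 counts in all a difference of the size seen in stu-miR482c may not have been detectable. stu-miR482d-5p, with 110 counts, was lower in Red beauty than in LK99 (adjusted p = 0.0375) at 0.484 ± 0.290 against 1.81 ± 0.886 CPM, a call that 6 of 18 other settings lost. For stu-miR482b-5p the counts were 10, 4, 18 and 30 summed over the 3 libraries of Black kingkong, Red beauty, Longshu No.7, LK99, where 3 counts over a cultivar correspond to 0.131 to 0.180 CPM.

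Within the family's own counts, the balance of members was not the same in every library. stu-miR482c made up 32.9% ± 3.00 of the family in Black kingkong and 27.1% ± 4.02 in LK99 (SD, n = 3 each), which overlapped. stu-miR482a-3p was 8.17% ± 1.52 in Longshu No.7 and 14.4% ± 2.14 in LK99, with no overlap (7.23% to 9.92% against 11.9% to 15.9%). stu-miR482b-3p made up 13.8% ± 0.491 in Black kingkong and 19.1% ± 1.47 in Longshu No.7, again with no overlap, while in LK99 it ranged from 9.68% to 19.6%. No test was made of these shares, since 1 member's share moves with the rest.

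**Figure D4:**
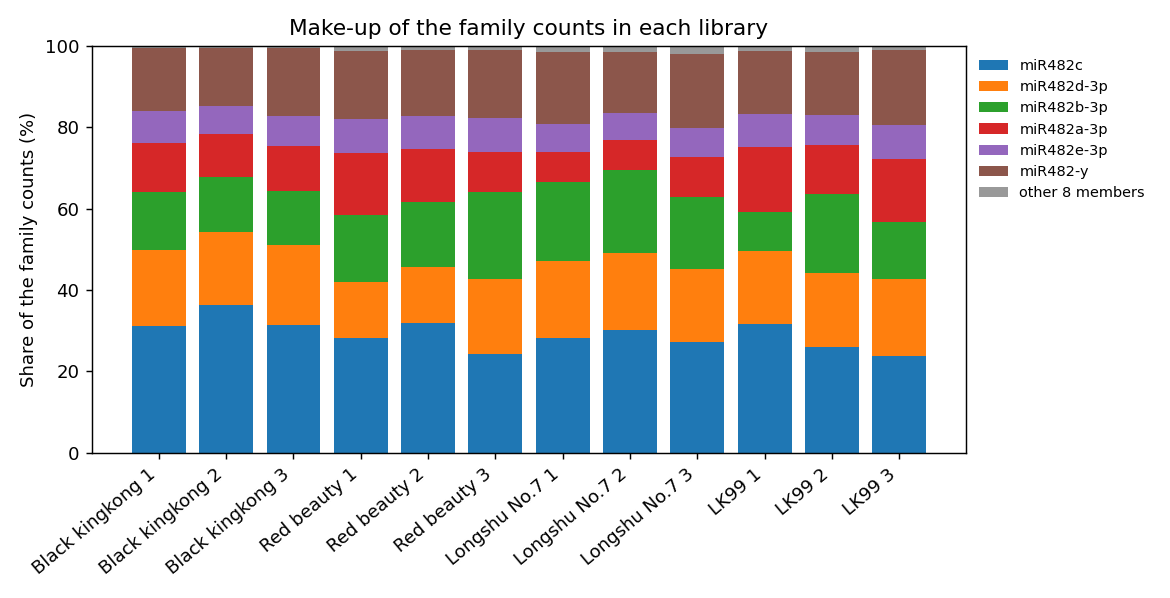
Share of each member in the family's summed counts in each of the 12 libraries (percent of counts, stacked). The other 8 members are summed in grey. The 6 abundant strands fill 98.0% to 99.6% of each library. stu-miR482c is the largest band in every library (32.9% ± 3.00 in Black kingkong, SD, n = 3).

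Across the 12 libraries, the abundant 3p members were alike to different degrees. The Pearson r of log2 CPM was 0.93 between stu-miR482d-3p and miR482-y, 0.91 between stu-miR482a-3p and stu-miR482e-3p, and -0.07 between stu-miR482b-3p and stu-miR482a-3p. These are descriptions without a test: the libraries share a cultivar in groups of 3 and the values share the scaling of a library. Outside the family, the 3 entries most like stu-miR482a-5p (r = 0.936 to 0.945 over 12 libraries) had no known family name. The named entry most like stu-miR482d-3p was stu-miR172e-5p (0.904) and that most like miR482-x was stu-miR172b-5p (0.877). Both are named for the 5p arm, and their means over the 12 libraries were 1.54 and 223 CPM. miR172 is known to target AP2-type transcription factors, but whether these 5p strands do was not tested. Among named entries, stu-miR482a-3p was most like miR828-x (0.906), miR482-y most like miR159-y (0.865) and stu-miR482b-3p most like miR5300-x (0.839). miR828 and miR159 are known to target MYB transcription factors. For miR472-y no entry was above 0.699.

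Other miRNAs that target resistance genes in Solanaceae or legumes, miR1507, miR2109, miR5300 and miR6019 to miR6027, contributed 24 distinct sequences, of which 13 were tested and 5 differed among the 4 cultivars, with 58.9% over all tested entries. The sequences of this list were taken by name with both arms, and whether each strand targets resistance genes was not tested. Between Red beauty and LK99, 1 of the 13 was higher and 3 were lower in Red beauty. Over all tested entries 33.5% were called (14.3% higher and 19.2% lower in Red beauty). The 1 that was higher was stu-miR6022, at 391 ± 33.7 CPM in Red beauty and 227 ± 27.7 CPM in LK99 (log2 fold change 0.79, adjusted p = 0.00992). Over the other 5 pairs, 1 to 3 of the 13 passed, with 18.3% to 42.1% over all tested entries. The median log2 fold change of the 13 between Red beauty and LK99 was -0.34, against -0.79 for the 12 family members. stu-miR6024-3p had 7.49 ± 1.27, 7.56 ± 2.24, 8.13 ± 2.02 and 27.3 ± 19.5 CPM in Black kingkong, Red beauty, Longshu No.7, LK99 (SD, n = 3 each; any difference, adjusted p = 0.00418). miR6027-x was highest in Longshu No.7, at 364 ± 151 CPM against 143 ± 30.6 CPM in Black kingkong (between this pair, adjusted p = 0.0108). stu-miR6026-5p had 0, 1, 64 and 161 counts summed over the 3 libraries of Black kingkong, Red beauty, Longshu No.7, LK99 (adjusted p = 4.82e-05), and stu-miR6024-5p rested on 1.07 ± 0.266 to 3.85 ± 2.21 CPM (adjusted p = 0.0111).

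miRNAs known by name to target the small RNA machinery were measured beside the family, since secondary siRNAs depend on it. Both arms were taken, and whether each strand pairs with such targets was not tested. miR162 (against DCL1), miR168 (AGO1) and miR403 (AGO2) gave 8 distinct sequences, all tested, of which 3 differed among the 4 cultivars, with 58.9% over all tested entries. All 3 were miR162 strands. stu-miR162a-3p, the most abundant of them, had 11849 ± 939.6 CPM in Black kingkong, 8166 ± 1119.5 CPM in Red beauty, 10209 ± 1732 CPM in Longshu No.7 and 5418 ± 733 CPM in LK99 (SD, n = 3 each; any difference, adjusted p = 0.00139). miR162-y had its highest mean in Black kingkong as well (178 ± 37.0 CPM; adjusted p = 0.00426), and stu-miR162a-5p had its highest in Longshu No.7 (20.6 ± 2.91 CPM; adjusted p = 0.00342). miR403-x, at 7.76 ± 0.0551 to 13.1 ± 1.99 CPM, did not pass over the 4 cultivars (adjusted p = 0.0716) but was higher in Black kingkong than in Red beauty (adjusted p = 0.049). Over the 6 pairs of cultivars, 1 to 3 of the 8 passed, with 18.3% to 42.1% over all tested entries. Against Red beauty, Longshu No.7 and LK99, 3, 1 and 2 were higher in Black kingkong and 0 were lower. Of all tested entries, 20.3%, 14.7% and 12.5% were higher in Black kingkong in these pairs, and 21.8%, 19.6% and 18.8% were lower. The 2 against LK99 were the miR162 strands stu-miR162a-3p and miR162-y, which also passed against Red beauty.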

How the data were processed

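Small RNA from tubers of 4 cultivars was sequenced in 12 libraries, 3 per cultivar. The deposited table gives for each miRNA the authors' raw read counts per library and its length in nucleotides, a value of another kind that was not analysed further than by counting lengths. It also holds columns headed TPM, treated as a score because they equal the deposited count divided by 1 number per library, with 0.01 in place of a count of 0. For Black kingkong replicate 1 that number was 11.9 times the library's own total, so these scores served only as an alternative for levels. The aligner, counter, miRNA release and build were not given in the sources used here. All 12 sample columns could be matched to labels, so 0 columns were left out.

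Counts of 7827 entries were filtered (filterByExpr, minimum count 10, minimum total 15), which left 1349, and tested with edgeR 4.0.16 (R 4.3.3, limma 3.58.1), TMM scaling and the quasi-likelihood test over all 12 libraries with cultivar as the only term. Benjamini-Hochberg adjustment was made over the 1349 entries of a comparison, with a threshold of 0.05. CPM are TMM-scaled. Of the named entries, members were those of the rule stated at the start of the report. The 3 entries with the highest Pearson r of log2 CPM were listed for each tested member, leaving out entries that share a run of 16 bases with it. For some members, the closest of the 3 outside the family that had a known family name was named. Of each list of other miRNAs at most 4 that passed, with the largest fold changes, were named. stu-miR6022 was named besides, as the only one of its list that was higher in Red beauty than in LK99. The members and lists were chosen with earlier results of these data known. Shares of the 2 arms of a hairpin were computed after the data were seen (Python 3.11.15), and a permutation test added at that point is not used as evidence here. The edgeR fit was tested on simulated data. Depth was 5605168 to 7354483 counts, and floors (3 counts over a cultivar) cover counting error only. Alternatives were other scalings and filters, DESeq2 1.42.0, 1 entry per sequence, a replicate block, fits on 2 cultivars alone, and leaving out each library.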

Additional observations from a re-analysis of the deposited data

How the results depend on the processing

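Of 1415 re-computed log2 fold changes of members, 49 changed sign, all of them in comparisons that passed neither before nor after. Of the 1415, 1293 stayed on their side of the threshold, 72 lost it and 50 gained it. With library size alone in place of TMM, the median of all entries moved by up to -0.51 (Red beauty against LK99), and 2, 2, 2 and 4 members passed for Black kingkong against Longshu No.7, Black kingkong against LK99, Red beauty against Longshu No.7 and Longshu No.7 against LK99. With no filter the first 3 of these had 2 each, and with DESeq2 Black kingkong against LK99 had 2. With only the compared cultivars fitted, Black kingkong against Red beauty had 8 and Longshu No.7 against LK99 had 1. At least 10 CPM in 3 libraries left 4 for Red beauty against LK99: stu-miR482d-5p was not tested there, and stu-miR482e-3p (0.0547) and miR482-x (0.0503) missed the threshold. The cause of these changes was not tested. Without 1 library, the members passing numbered 5 to 8 (any difference), 4 to 7 (Black kingkong against Red beauty), 1 to 4 (Black kingkong against Longshu No.7), 1 to 3 (Black kingkong against LK99), 1 to 3 (Red beauty against Longshu No.7), 2 to 8 (Red beauty against LK99) and 1 to 3 (Longshu No.7 against LK99). The count of all entries passing moved by over 1.5 times in 16 of 139 cases. Levels moved by over 1 SD in 8 of 56 cases with library size alone and in 22 with the deposited scores.

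Deviations of same-numbered libraries correlated at -0.07 to 0.15, over 0.1 in 2 of 18 pairs. The same number gave the highest r in 18 of 36 cases, more than an even choice among 3 libraries would give. These values do not settle whether replicate numbers pair the libraries. With a replicate block 8 members passed for any difference, and 6, 5, 1, 1, 6 and 2 in the 6 pairs in the order above. The 277 counts of miR2118-y and 122 of miR472-y limit what could be detected.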
